A study of Mus musculus with 8 samples.

Results

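CC chemokine genes on mouse chromosome 11 were compared between tumor-associated macrophages (TAMs) of WT and miR-21-/- mice. The members are the 10 genes Ccl2, Ccl7, Ccl11, Ccl12, Ccl8, Ccl5, Ccl9, Ccl6, Ccl3 and Ccl4, taken by symbol from the 53247 genes of the deposited table. Tumors grew for 14 days from s.c. LLC cells, a Lewis lung carcinoma line of C57BL/6 mice, and TAMs positive for CD45, CD11b, MHCII and F4/80 were sorted by flow cytometry for mRNA sequencing, in 4 WT and 4 miR-21-/- samples. All hosts were C57/BL6 mice 10 weeks old and received the same LLC line, so that the genotypes differed in the host and not in the tumor cells. The miR-21-/- mice lack miR-21 in all host cells (allele Mir21atm1Yoli, bred with C57BL/6 for several generations) and not only in macrophages. The labels call the samples biological replicates without giving the number of mice in each, so that p-values measure the spread between these samples, and miR-21-/- replicate 1 carries a double number in its title.

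CC chemokines are small secreted proteins that bind G protein-coupled receptors on leukocytes and direct their migration along a gradient. In tumors they are made by macrophages, monocytes, T cells and stromal cells, and bring in monocytes, eosinophils and lymphocytes. Many of their genes arose by tandem duplication and lie side by side. In the deposited table (GRCm38) the first group, Ccl2, Ccl7, Ccl11, Ccl12 and Ccl8, lies at chr11:82035571-82116799, with all genes on the plus strand. The second group, Ccl5, Ccl9, Ccl6, Ccl3 and Ccl4, lies at chr11:83525778-83664683, with Ccl4 on the plus strand and the others on the minus strand. The members lie 2.92 to 4.55 Mb from Mir21a, the gene of miR-21, on the same chromosome.

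miR-21 binds mRNAs through its seed, bases 2 to 8 of the mature strand. Its sequence (RefSeq, GRCm38.p6, chr11:86584120-86584141, minus strand) is shown with the seed in capitals:
mmu-miR-21a-5p: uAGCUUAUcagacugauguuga
The longest annotated 3′ UTR of each member was searched for the 4 usual forms of seed match. The longest form is ATAAGCTA, and the others lack its last base (ATAAGCT), lack its first base (TAAGCTA) or lack both (TAAGCT). Matches were found in Ccl9 and Ccl3, both of the form ATAAGCT, and none of the 4 forms was found in the 3′ UTRs of the other 8 members. The match begins at base 1449 of the 2468 bases of the Ccl9 3′ UTR and at base 108 of the 412 bases of the Ccl3 3′ UTR. Both are printed with 10 bases on either side and the match in capitals (GRCm38, minus strand, chr11:83573922-83573948 for Ccl9 and chr11:83648132-83648158 for Ccl3):
Ccl9: attttttttgATAAGCTgaccattgtc
Ccl3: tccatctcctATAAGCTgtttgctgcc
This form was the longest match in 5.83% of the 11526 tested genes that have a 3′ UTR in the annotation, and any of the 4 was found in 27.8%. A match describes the sequence and does not show that miR-21 binds there.

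Promoter sequences, from 250 bases before to 50 bases after the start of the gene, were found in the RefSeq table (GRCm38.p6) for 5 members, Ccl12, Ccl8, Ccl9, Ccl6 and Ccl3. Those of 2 pairs of neighbours are printed, since the balance within each pair differed between the genotypes, as given further on. Capitals mark the TATA box, and in Ccl9 also the AP-1 and NF-kB consensus motifs. The windows are chr11:82101595-82101894 (plus strand) for Ccl12, chr11:82114935-82115234 (plus strand) for Ccl8, chr11:83578587-83578886 (minus strand) for Ccl9 and chr11:83593038-83593337 (minus strand) for Ccl6:
Ccl12: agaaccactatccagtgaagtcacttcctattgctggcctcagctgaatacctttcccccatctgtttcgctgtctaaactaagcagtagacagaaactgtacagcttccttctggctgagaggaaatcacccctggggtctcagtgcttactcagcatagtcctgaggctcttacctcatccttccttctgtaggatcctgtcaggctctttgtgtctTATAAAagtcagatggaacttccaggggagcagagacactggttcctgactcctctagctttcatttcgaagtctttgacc
Ccl8: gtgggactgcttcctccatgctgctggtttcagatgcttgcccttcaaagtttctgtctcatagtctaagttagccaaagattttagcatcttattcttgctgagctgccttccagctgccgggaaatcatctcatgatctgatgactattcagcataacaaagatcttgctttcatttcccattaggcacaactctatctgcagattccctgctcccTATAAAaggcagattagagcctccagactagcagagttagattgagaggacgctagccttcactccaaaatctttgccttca
Ccl9: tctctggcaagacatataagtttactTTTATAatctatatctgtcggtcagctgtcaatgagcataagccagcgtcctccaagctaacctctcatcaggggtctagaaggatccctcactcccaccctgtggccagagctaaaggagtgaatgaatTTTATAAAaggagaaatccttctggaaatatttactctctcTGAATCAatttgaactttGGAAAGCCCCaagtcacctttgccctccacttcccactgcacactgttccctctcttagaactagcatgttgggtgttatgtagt
Ccl6: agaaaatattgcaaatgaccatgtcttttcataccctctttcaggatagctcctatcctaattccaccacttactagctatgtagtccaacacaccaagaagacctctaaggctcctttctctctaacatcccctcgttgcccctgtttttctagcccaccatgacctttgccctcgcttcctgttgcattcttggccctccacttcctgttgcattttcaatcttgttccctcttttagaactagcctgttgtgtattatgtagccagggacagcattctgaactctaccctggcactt
Ccl12 and Ccl8 each had 1 TATA box (TATAAA; all motifs were searched on both strands), 31 and 32 bases before the start. Ccl9 had 3 matches that include an overlapping pair on opposite strands, the nearest 92 bases before the start. No TATAAA was found in the windows of Ccl6 and Ccl3, and 13.6% of all 32851 promoters in the table hold one. The Ccl9 window alone held the NF-kB consensus (8.46% of all promoters) and the AP-1 motif TGANTCA (7.81%). The STAT motif TTCNNNGAA, the C/EBP motif TTNNGCAA and the interferon-stimulated response element were found in none of the 5 windows, against 8.30%, 10.8% and 3.44% of all promoters. The PU.1 core GAGGAA, present in 28.3% of all promoters, was found in Ccl12, Ccl8 and Ccl3. In pairwise alignment Ccl12 and Ccl8 had the highest identity of the 10 pairs, 55.7%, and Ccl6 and Ccl9 shared the longest identical run, 13 bases. Motif matches are descriptions of these windows, and their absence says nothing of the factors.

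The deposited values are CPM (counts per 1e+06 reads). Depth, estimated from the smallest steps between values, was 20.2 to 33.3 in units of 1e+06 reads per sample. Between genotypes, log2(CPM + 1) was fitted with limma over 13850 genes, and a gene was past the threshold when its Benjamini-Hochberg adjusted p was 0.005 or less and its fold change exceeded 1.5. All log2 fold changes are miR-21-/- over WT on the log2(CPM + 1) scale. Markers of the sorted cells were present in every sample, with summed CPM of 11 macrophage markers of 11577 to 13633 in WT and 10379 to 13170 in miR-21-/- TAMs. Mir21a itself was listed at 0.0001 CPM, the value given to genes without reads, in all 8 samples, so that these mRNA libraries do not check the genotype.

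Of the 10 members, 9 had enough reads for the fit, and all 9 had a higher mean in miR-21-/- TAMs. Past the threshold were 5 members, Ccl8, Ccl6, Ccl5, Ccl9 and Ccl4, and all 5 were higher. Over all tested genes 7.12% passed in either direction and 2.89% passed as higher. In the same 5 members every miR-21-/- sample lay above every WT sample, which held for 9.44% of all tested genes. The median log2 fold change of the 9 members was 0.91, against -0.10 over all tested genes. With the limit on adjusted p at 0.05, 7 of the 9 members passed as higher, Ccl7 and Ccl12 being added, against 3.70% of all tested genes. At an unadjusted p under 0.05, 12.3% of all tested genes were higher and 34.1% were lower, which is the background of the counts at that limit given further on. In bulk samples, more cells of a producing type and more mRNA per cell cannot be told apart.

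**Figure D1:**
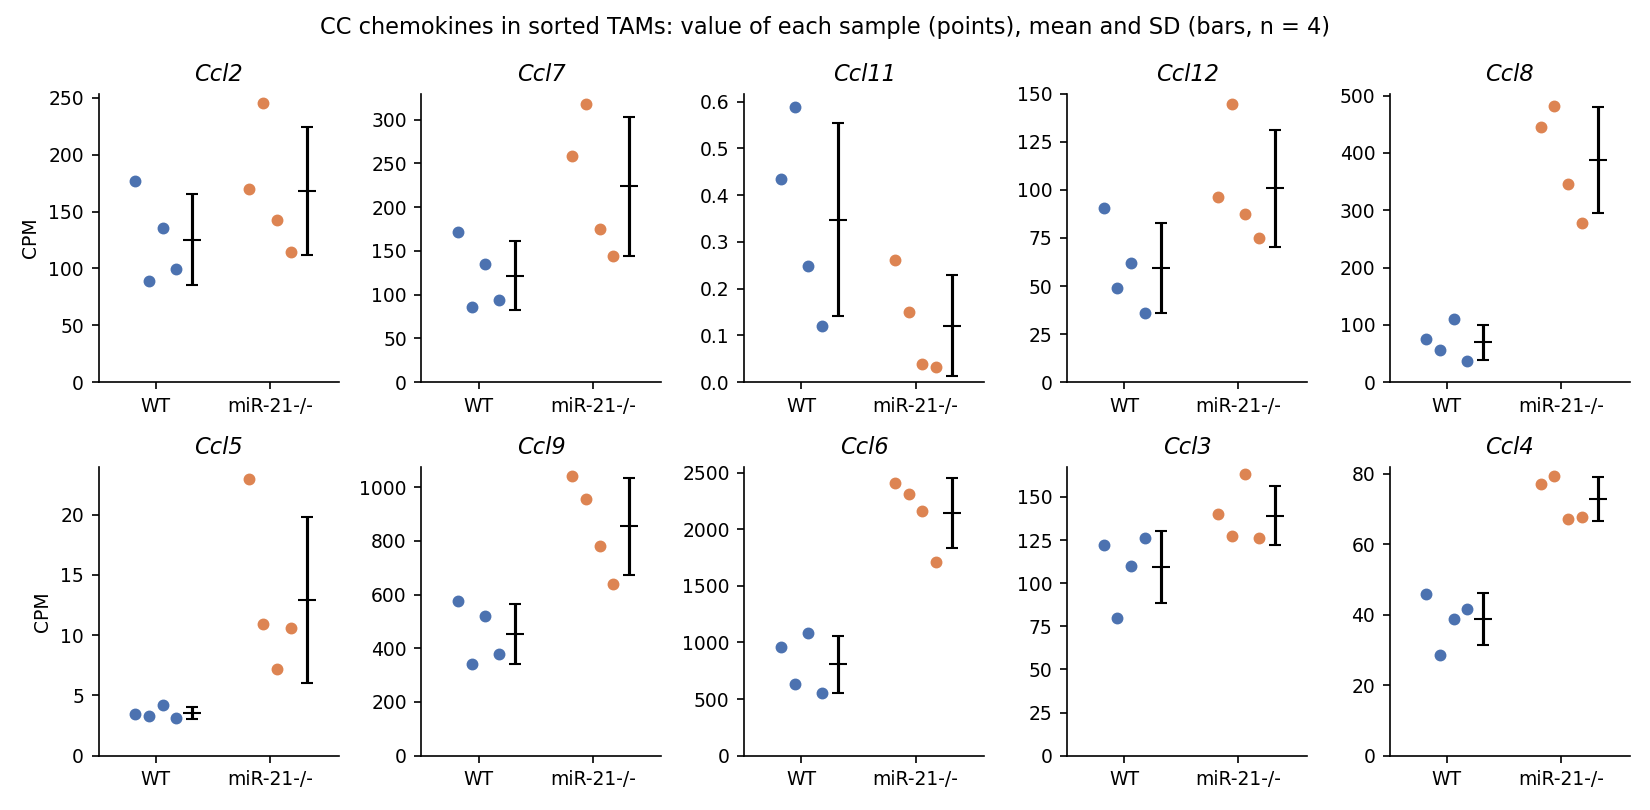
CPM (vertical axis, from 0, its range differing between panels) of the 10 members in the 4 WT and 4 miR-21-/- samples (points, replicates 1 to 4 from left to right), with mean and SD as bars. The groups do not overlap for Ccl8, Ccl5, Ccl9, Ccl6 and Ccl4, and overlap for the other members.

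The members of the first group that act on CCR2, the receptor that brings monocytes out of the bone marrow and into tissue, are Ccl2, Ccl7 and Ccl12. Ccl2, the main ligand of CCR2, measured 177, 88.9, 135 and 99.7 CPM in WT samples 1 to 4 and 170, 246, 143 and 115 CPM in miR-21-/- samples 1 to 4. The groups overlapped widely, and only miR-21-/- replicate 2 lay above all WT samples. The log2 fold change of Ccl2 was 0.42 ± 0.25 (SE), with a 95% interval of -0.14 to 0.97 and an adjusted p of 0.218 (limma). It was 0.27 without WT replicate 2, 0.22 without miR-21-/- replicate 2 and 0.60 without WT replicate 1 (adjusted p 0.0793). Ccl7, a second CCR2 ligand encoded next to Ccl2, measured 171, 86.4, 135 and 93.9 CPM in WT and 259, 318, 175 and 144 CPM in miR-21-/- samples. Here 3 of the 4 miR-21-/- samples exceeded every WT sample, and replicate 4 lay within the WT range. The log2 fold change of Ccl7 was 0.86 ± 0.27 (SE) with an adjusted p of 0.0308, short of the threshold. Ccl12, a further CCR2 ligand found in mice, measured 90.7, 48.9, 61.8 and 36.1 CPM in WT and 96.2, 145, 87.3 and 75.0 CPM in miR-21-/- samples. Only WT replicate 1 reached into the miR-21-/- range. Its log2 fold change was 0.79 ± 0.27 (SE), adjusted p 0.0414, also short of the threshold.

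Ccl8, which in mice binds CCR8, a receptor of type 2 helper and regulatory T cells, had the largest fold change of the members. It measured 74.5, 56.5, 110 and 36.9 CPM in WT and 445, 482, 345 and 278 CPM in miR-21-/- samples. The lowest miR-21-/- sample was above the highest WT sample by more than the whole WT range. The mean rose from 69.5 ± 31.1 (SD, n = 4) to 388 ± 93.1 CPM (SD, n = 4), a ratio of 5.58, and the log2 fold change was 2.54 ± 0.29 (SE) with an adjusted p of 0.00022 (limma). Ccl8 was past the threshold in the fit and in each of its 18 alternatives. Its call was not shared by Ccl12, its neighbour 11.8 kb upstream in the same orientation.

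Ccl11, eotaxin, attracts eosinophils through CCR3 and is made mainly by stromal cells. It was near the detection limit at 0.435, 0.589, 0.247 and 0.120 CPM in WT and 0.261, 0.150, 0.0385 and 0.0332 CPM in miR-21-/- samples, which is between 1 and 17 reads. In miR-21-/- replicates 3 and 4 it stood at 1 read, under the 3 reads (0.0901 to 0.149 CPM) that a count of 0 would allow. It was the only member with a lower mean in miR-21-/- TAMs, 0.121 ± 0.108 against 0.348 ± 0.206 CPM (SD, n = 4 each), but the groups overlapped and the exact permutation test gave p = 0.143, two-sided, where the smallest p of 4 against 4 is 0.0286. It did not pass the filter of the fit. Summed CPM of the 6 fibroblast markers was 93.1, 60.7, 84.5 and 137 in WT and 10.1, 44.1, 14.6 and 11.1 in miR-21-/- samples. Col1a1, Col3a1 and Pdgfra of these passed the threshold as lower. The part of fibroblast RNA in the Ccl11 values was not tested.

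In the second group, Ccl6 and Ccl9 are rodent chemokines that act on CCR1 and are made in quantity by myeloid cells. Ccl6 measured 957, 629, 1082 and 555 CPM in WT and 2405, 2311, 2158 and 1709 CPM in miR-21-/- samples. All 4 miR-21-/- samples lay well above the WT samples. The mean rose from 806 ± 254 to 2146 ± 308 CPM (SD, n = 4), with a log2 fold change of 1.46 ± 0.21 (SE) and an adjusted p of 0.000685. Ccl9 measured 575, 340, 521 and 377 CPM in WT and 1040, 954, 783 and 638 CPM in miR-21-/- samples. Here the gap was narrow, 575 in the highest WT sample against 638 in the lowest miR-21-/- sample. Its log2 fold change was 0.92 ± 0.19 (SE) with an adjusted p of 0.00481, just inside the limit. The Ccl9 call was lost without WT replicate 2, 3 or 4 (adjusted p 0.0144, 0.00853 and 0.0114) and without miR-21-/- replicate 1, 2 or 3 (adjusted p 0.0142, 0.0161 and 0.0115), while its log2 fold change stayed between 0.79 and 1.05 in all alternatives. Ccl9 is also a member with a seed match, shown above, and the other such member, Ccl3, did not pass the threshold.

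Ccl3 and Ccl4, the macrophage inflammatory proteins alpha and beta, are made by activated macrophages and attract leukocytes, Ccl3 in part through CCR1. They are encoded 13.2 kb apart on opposite strands. Ccl4 measured 46.0, 28.5, 38.8 and 41.6 CPM in WT and 77.1, 79.4, 67.2 and 67.7 CPM in miR-21-/- samples. The spread within each genotype was small and the groups lay apart. Its mean rose from 38.7 ± 7.41 to 72.9 ± 6.29 CPM (SD, n = 4), and the log2 fold change was 0.91 ± 0.13 (SE), adjusted p 0.000663. Ccl3 measured 122, 80.1, 109.8 and 126.26 CPM in WT and 140, 127, 163 and 126.21 CPM in miR-21-/- samples. WT replicate 4 and miR-21-/- replicate 4 were nearly equal. The log2 fold change of Ccl3 was 0.36 ± 0.14 (SE), with a 95% interval of 0.05 to 0.66 and an adjusted p of 0.068, and it was 0.21 without WT replicate 2.

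Ccl5, which attracts T cells and monocytes and binds CCR1 and CCR3 among its receptors, is made by macrophages and in large amounts by activated CD8+ T and NK cells. It was low, at 3.44, 3.32, 4.21 and 3.11 CPM in WT and 22.95, 10.9, 7.18 and 10.6 CPM in miR-21-/- samples, or 78 to 614 reads. WT samples were nearly equal, and miR-21-/- replicate 1 was more than 2-fold above the next sample. The log2 fold change was 1.51 ± 0.27 (SE) with an adjusted p of 0.00207. Without WT replicate 1, 2, 3 or 4 the adjusted p was 0.00586, 0.00737, 0.0055 and 0.00502 and the call was lost, as it was without miR-21-/- replicate 2 (0.00614). With a pseudocount of 10 in place of 1 the log2 fold change was 0.72 (adjusted p 0.00699). Summed CPM of the 9 T and NK cell markers was 17.4, 16.6, 20.01 and 28.8 in WT and 55.4, 28.5, 16.3 and 40.6 in miR-21-/- samples, highest in the sample that was highest in Ccl5. Cd8a, a co-receptor of cytotoxic T cells, measured 11.6 CPM in that sample, and 6.04, 2.80 and 6.35 CPM in miR-21-/- replicates 2 to 4, against 1.32 to 2.19 CPM in WT. Of the 7 T and NK cell markers tested none passed the threshold (limma), and 2 were higher at an unadjusted p under 0.05 (12.3% of all tested genes). Cd8a had a log2 fold change of 1.28 (limma, adjusted p 0.00804), and passed without miR-21-/- replicate 3 (1.58, adjusted p 0.00131). In miR-21-/- replicate 3 the marker sum was below that of every WT sample, while Cd8a (2.80 CPM) and Ccl5 (7.18 CPM) were above every WT sample. The part of T and NK cell RNA in the Ccl5 values was not tested.

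**Figure D2:**
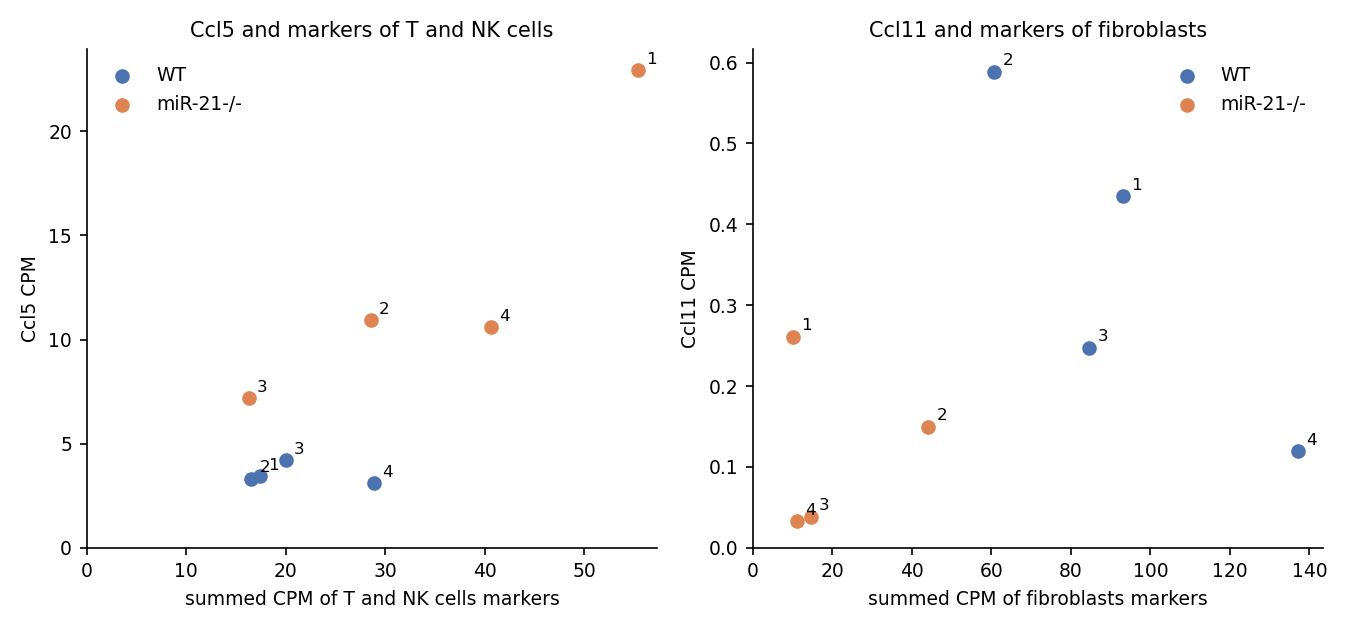
Ccl5 CPM against the summed CPM of 9 T and NK cell markers (left) and Ccl11 CPM against the summed CPM of 6 fibroblast markers (right), each point 1 sample, with its replicate number. miR-21-/- replicate 1 is highest in both Ccl5 (22.95 CPM) and T and NK markers (55.4 CPM), and the 4 miR-21-/- samples have the lowest fibroblast marker sums (10.1 to 44.1 CPM).

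**Figure D3:**
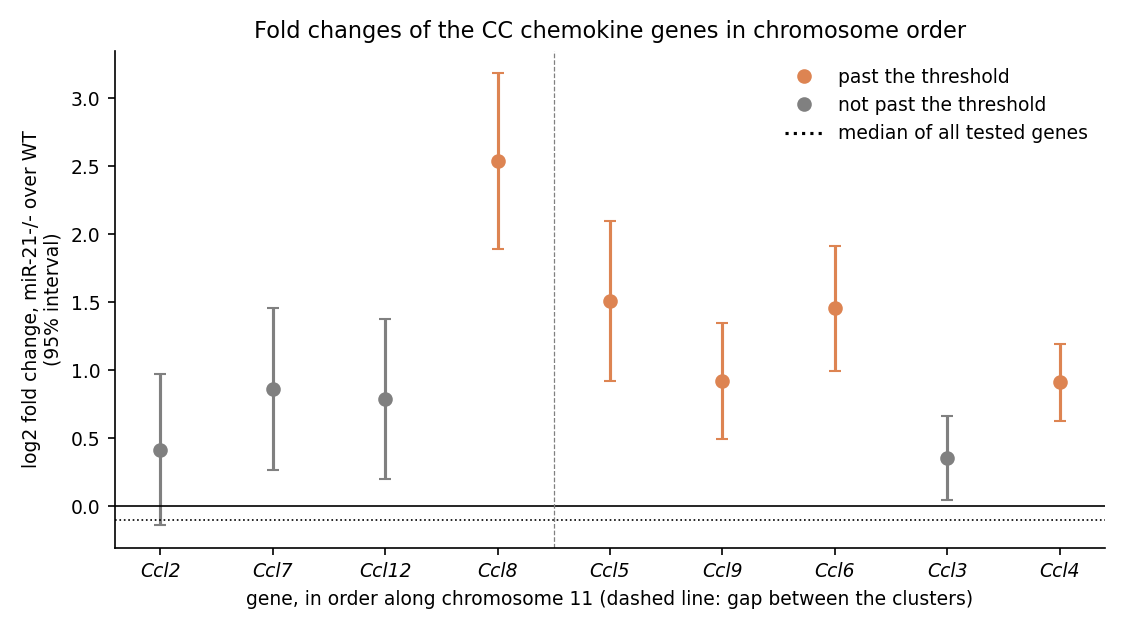
log2 fold change (miR-21-/- over WT, limma, log2(CPM + 1) scale) with 95% interval of the 9 tested members in their order on chromosome 11. Ccl8 is highest at 2.54, Ccl3 is lowest at 0.36, and Ccl2, Ccl7, Ccl12 and Ccl3 are not past the threshold (grey), with the dotted line at the median of all tested genes, -0.10.

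Neighbouring members are measured in the same sample, so that their difference depends little on a scaling factor common to a sample. Their coding sequences are related but not near-identical, with the highest identity for Ccl3 and Ccl4 (68.1%) and the longest shared run for Ccl6 and Ccl9 (23 bases). The log2(CPM + 1) difference of each of 7 pairs of neighbours was compared between genotypes with an exact permutation test, two-sided (4 against 4, smallest possible p = 0.0286). These pairs were compared after the values were seen. In 5 of the 7 pairs the groups did not overlap, which gives an exact permutation p of 0.0286 each. Among all 12670 pairs of tested genes that follow each other on a chromosome, 30.1% were without overlap in either direction, so that the separation of a pair is common in these samples. The median size of the shift was 0.56 over the 7 pairs and 0.24 over all such pairs, both as descriptions. The pair Ccl6 and Ccl9 is not among the 12670, since the tested gene E230016K23Rik starts between them. Ccl7 and Ccl2 were nearly equal in CPM in the WT samples, with differences of -0.050, -0.041, -0.0063 and -0.086, while Ccl7 exceeded Ccl2 by 0.60, 0.37, 0.29 and 0.32 in the miR-21-/- samples, a shift of 0.44. Ccl8 against Ccl12 shifted by 1.75, from differences of -0.28, 0.21, 0.82 and 0.031 in WT to 2.20, 1.73, 1.97 and 1.88 in miR-21-/- samples. This was the largest shift of the 7 pairs. Ccl6 against Ccl9 shifted by 0.53, Ccl4 against Ccl3 by 0.56 and Ccl3 against Ccl6 by -1.10. The groups overlapped for Ccl12 against Ccl7 (shift of -0.073, exact permutation p = 0.629) and for Ccl9 against Ccl5 (-0.59, exact permutation p = 0.143).

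**Figure D4:**
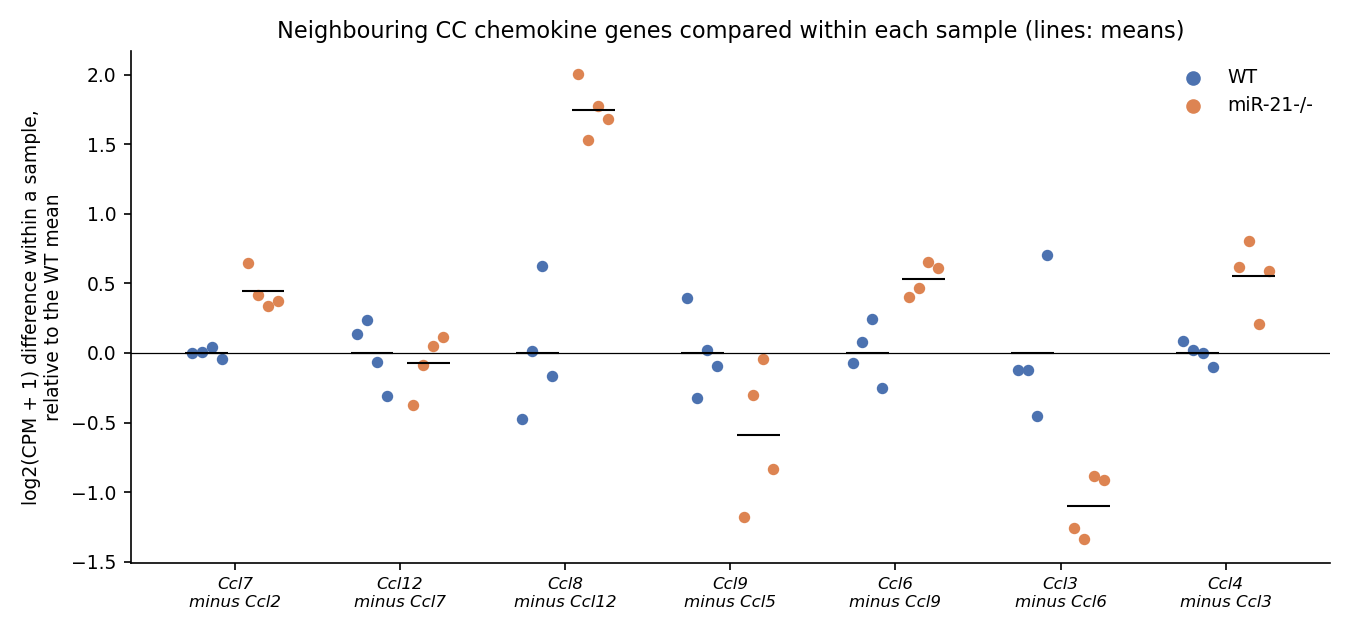
Difference in log2(CPM + 1) between neighbouring members within each sample (points), set relative to the mean of the WT samples, for 7 pairs. WT and miR-21-/- points are separate in 5 pairs (30.1% of all pairs of neighbouring tested genes), most of all for Ccl8 minus Ccl12 (shift of 1.75), and overlap for Ccl12 minus Ccl7 and Ccl9 minus Ccl5.

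To compare levels between genes, CPM was divided by exon length, giving CPM per kb. Ccl6 led in both genotypes, with 449 ± 141 in WT and 1195 ± 172 CPM per kb in miR-21-/- TAMs (SD, n = 4). In WT samples 6 members followed, each with a range that overlapped the next one's, namely Ccl7 (152), Ccl9 (149), Ccl3 (143), Ccl8 (136), Ccl12 (111) and Ccl2 (110 CPM per kb). Ccl4 (58.7), Ccl5 (3.67) and Ccl11 (0.321 CPM per kb) stood below them, each apart from the next. In miR-21-/- samples Ccl8 stood second at 758 ± 182 CPM per kb, apart from Ccl6 above it and Ccl9 (280) below it. Ccl7 (279.6), Ccl12 (188), Ccl3 (182), Ccl2 (148) and Ccl4 (110.4 CPM per kb) followed, each overlapping with the next. Ccl5 (13.5) and Ccl11 (0.112 CPM per kb) were again last. The sum over the 10 members was 1639, 1001, 1598 and 1008 CPM per kb in WT and 3528, 3724, 2965 and 2404 CPM per kb in miR-21-/- samples. Ccl8 made up 8.90%, 11.1%, 13.5% and 7.16% of that sum in WT and 24.7%, 25.3%, 22.8% and 22.6% in miR-21-/- samples. The share of Ccl6 was 34.0% ± 3.06 in WT and 38.2% ± 2.63 in miR-21-/- samples (SD, n = 4), with overlapping ranges. The share of Ccl3 was 11.4% in WT and 5.92% in miR-21-/- samples, and that of Ccl2 was 8.36% and 4.61%.

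**Figure D5:**
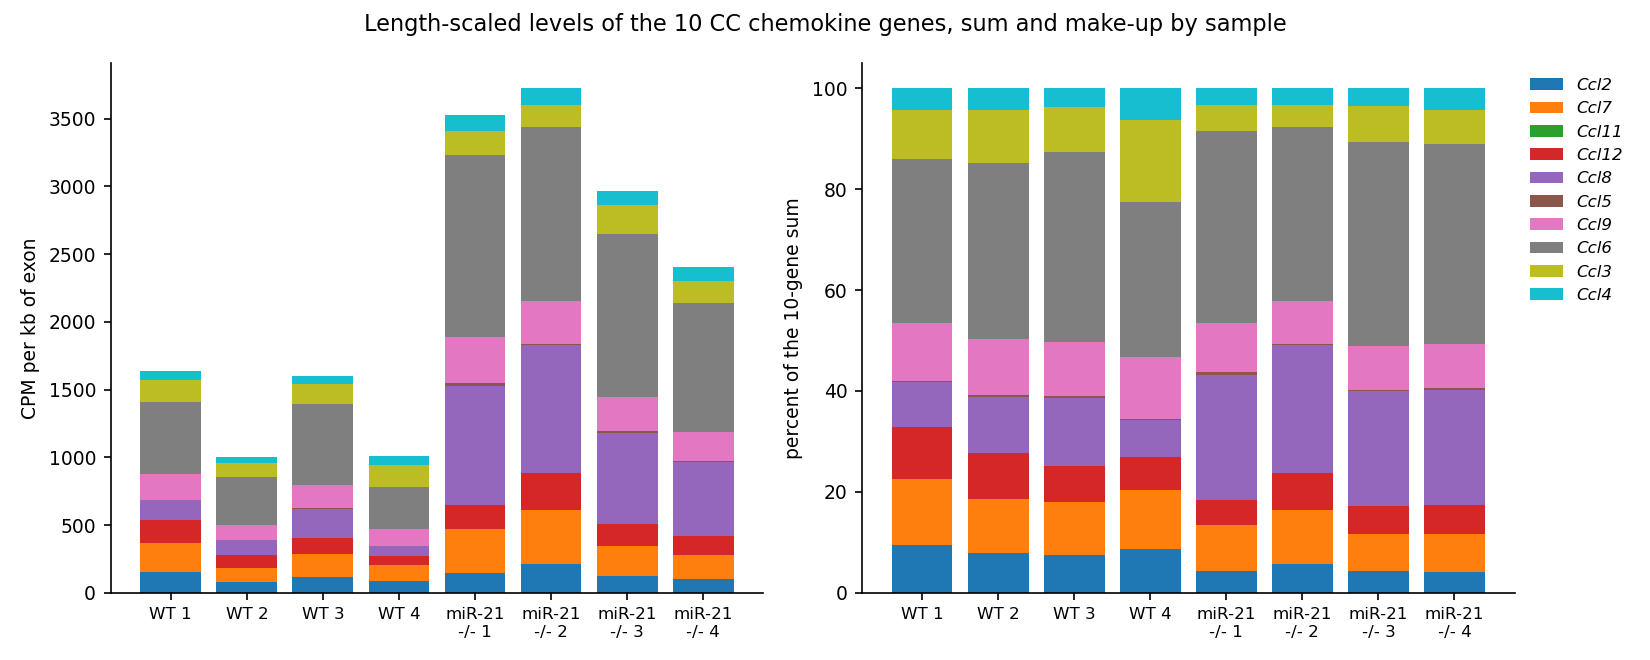
CPM per kb of exon of the 10 members stacked by sample (left) and as percent of their sum in each sample (right). The sums lie between 1001 and 1639 in WT and between 2404 and 3724 in miR-21-/- samples, and the Ccl8 share is 7.16% to 13.5% in WT and 22.6% to 25.3% in miR-21-/- samples.

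The order of the samples within a genotype was similar in most members. The orders counted here were chosen after the members' values were seen, so that the shares over all genes are given as a description only. WT replicates 1 and 3 were both above replicates 2 and 4 in 7 of the 9 tested members, all except Ccl3 and Ccl4, which held for 15.3% of all tested genes. miR-21-/- replicates 1 and 2 were both above replicates 3 and 4 in 8 of the 9, all except Ccl3, against 21.7% of all tested genes. These counts describe the samples, and why most members share an order was not tested.

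Of the receptors of these chemokines, Ccr3, the eotaxin receptor, is carried mainly by eosinophils. It was lower in miR-21-/- samples, at 5.25 ± 1.18 against 16.6 ± 4.99 CPM (SD, n = 4), with a log2 fold change of -1.47 and an adjusted p of 0.000657, past the threshold. Siglecf, another eosinophil marker, also passed as lower, at 1.82 and 0.658 CPM, while the eosinophil peroxidase gene Epx was listed at 0.0001 CPM in all 8 samples. Ccr1, the receptor of Ccl6 and Ccl9, was at 361 and 452 CPM (0.33, adjusted p 0.0428). Ccr2, the receptor of Ccl2, Ccl7 and Ccl12, was at 440 and 355 CPM (-0.28, adjusted p 0.351), and its log2 fold change was -0.062 without WT replicate 1, which measured 669 CPM, -0.17 without miR-21-/- replicate 4 and -0.44 without miR-21-/- replicate 1. Ccrl2, an atypical receptor without known signaling, was at 61.6 and 103 CPM (0.73, adjusted p 0.00694), and passed without WT replicate 4 (0.85, adjusted p 0.00268). The receptor of Ccl8, Ccr8, was below the filter at 0.568, 0.485, 1.04 and 0.558 CPM in WT and 0.187, 0.0900, 0.115 and 0.0993 CPM in miR-21-/- samples.

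Other CC chemokines were scarce. Of 11 listed, 3 were tested (median log2 fold change 0.17), with 0 past the threshold in limma and 0 at an unadjusted p under 0.05. Ccl22, a macrophage and dendritic cell product that acts on CCR4, was at 2.03 and 2.57 CPM, and Ccl24, a further eotaxin, at 2.51 and 2.40 CPM. Ccl25, a chemokine of gut and thymus, was at 3.70 CPM in both. Ccl19, Ccl20 and Ccl26 were listed at 0.0001 CPM in all samples. Ccl1, which shares the receptor CCR8 with Ccl8, was listed at 0.0001 CPM in WT replicates 1, 2 and 4 and was at 0.149 CPM in WT replicate 3 and at 0.224, 0.420, 0.422 and 0.331 CPM in the miR-21-/- samples, too low for the fit.

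Chemokine genes are induced by inflammatory cytokines, of which tumor necrosis factor and interleukin 1 act through NF-kB and interferons through STAT proteins. Of 9 listed inducing cytokines 4 were tested, with a median log2 fold change of 1.04. Of these 2 passed the threshold as higher, against 2.89% of all tested genes. Tnf rose from 31.3 ± 6.67 to 61.5 ± 9.29 CPM (SD, n = 4), by 0.97 on the log2 scale at an adjusted p of 0.00115. Il1a rose from 6.12 ± 1.51 to 17.7 ± 3.29 CPM (SD, n = 4), by 1.40 on the log2 scale at an adjusted p of 0.000318. Il1b was at 680 and 942 CPM (0.46, adjusted p 0.0213). Ifng, which encodes interferon gamma, was low at 0.208 to 0.866 CPM in WT and 0.995 to 3.58 CPM in miR-21-/- samples, without overlap (1.11, adjusted p 0.00554). Of 15 NF-kB subunits, kinases and inhibitors 15 were tested (median log2 fold change 0.049) and 0 passed in limma, with 4 higher and 2 lower at an unadjusted p under 0.05 (12.3% and 34.1% of all tested genes). Nfkbie, an inhibitor that NF-kB itself induces, had the highest log2 fold change of these, 0.56 at an adjusted p of 0.00112, under the fold change limit, which it passed without miR-21-/- replicate 3 (0.61). Rel, a subunit, had the lowest, -0.22 at an adjusted p of 0.0328 (limma). With the median of ratios Rel was at -0.11 (adjusted p 0.299), and with quantile normalization at -0.16 (adjusted p 0.146). Of 15 signaling genes behind chemokine receptors 14 were tested (median log2 fold change -0.16) and 1 passed, against 7.12% of all tested genes. At an unadjusted p under 0.05 (limma) 0 were higher and 7 lower (12.3% and 34.1% of all tested genes). Without the fold change limit 4 passed, all lower, Rgs2, Elmo1 (-0.50), Pik3cg (-0.43) and Arrb2 (-0.27). The share of all tested genes at that setting was not counted. Rgs2, which shortens G protein signals, fell from 169 ± 22.1 to 76.8 ± 12.7 CPM (SD, n = 4), with a log2 fold change of -1.14 and an adjusted p of 0.000193. Gnai3, a G protein subunit, had the highest value of that list, 0.05 at an adjusted p of 0.458.

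Among the genes that lie within either chemokine group and are not CC chemokines, 1 was tested, and it passed the threshold. E230016K23Rik, a transcript known by its clone name at chr11:83582056-83623693 on the plus strand, spans the whole of Ccl6 on the other strand and shares no exon base with it. It measured 1.44, 0.727, 2.08 and 0.916 CPM in WT and 7.95, 7.67, 7.45 and 5.19 CPM in miR-21-/- samples, with a log2 fold change of 1.84. The sources used here do not say whether reads were counted by strand, so that reads of the shared span cannot be told apart by strand. In the stretch between the groups 21 genes were tested and 1 passed, the Schlafen pseudogene Slfn10-ps. Within 5 Mb of Mir21a to either side, members left out, 6 of 85 tested genes passed (7.06%), and on chromosome 11, members left out, 101 of 1099 passed (9.19%). Vmp1, whose span includes Mir21a, rose with a log2 fold change of 1.67.

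For each member past the threshold, the genes with the most similar profile over the 8 samples were found by the root mean square difference of log2(CPM + 1) after subtracting each gene's mean. The nearest were Ms4a8a (0.30) and Selenom (0.39) for Ccl8, Cd8a (0.22) and Tnfaip2 (0.27) for Ccl5, and F7 (0.11) and Slc39a14 (0.13) for Ccl9. For Ccl6 they were Fcrlb (0.18) and Cacna1d (0.18), and for Ccl4 Crem (0.11) and S100a10 (0.11). Selenom alone of these 10 genes lies on chromosome 11.

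Markers of other cell types were measured in the same samples, and their part in the chemokine values was not tested. Summed CPM of 9 neutrophil markers was 770 to 1169 in WT and 575 to 748 in miR-21-/- samples, with 0 of 7 tested past the threshold in limma and 5 lower at an unadjusted p under 0.05 (34.1% of all tested genes). Summed CPM of 6 monocyte markers was 899 to 1664 in WT and 792 to 1362 in miR-21-/- samples, with 0 of 6 past the threshold and 1 higher and 2 lower at an unadjusted p under 0.05. Cd79b, a B cell marker, and Mcpt4, a mast cell marker, passed as lower. B cell markers totaled 10.8 to 16.8 CPM in WT and 3.60 to 10.0 CPM in miR-21-/- samples, and mast cell and basophil markers 5.30 to 8.93 and 2.34 to 4.08 CPM. Summed conventional dendritic cell markers overlapped at 11.2 to 19.9 and 15.2 to 38.4 CPM, with 0 of 6 past the threshold and 1 higher and 3 lower at an unadjusted p under 0.05. Clec9a was at 2.30 to 2.74 CPM in WT and 4.18 to 14.0 CPM in miR-21-/- samples (log2 fold change 1.26, adjusted p 0.00532). Cd209a was at 0.996 to 5.79 CPM and 0.0769 to 1.16 CPM (-1.28, adjusted p 0.0187). The other dendritic cell markers lay between them in log2 fold change, Xcr1 at 1.06, Ccr7 at -0.031, Zbtb46 at -0.41 and Flt3 at -0.50. Summed endothelial markers overlapped at 153 to 304 and 203 to 292 CPM. Epithelial markers of the tumor cells totaled 18.8 to 24.8 CPM in WT and 12.7 to 17.9 CPM in miR-21-/- samples. Of the macrophage markers, 1 of 11 passed the threshold, Fcgr1, higher in miR-21-/- TAMs, and at an unadjusted p under 0.05 1 was higher and 2 were lower. The lower ones were Adgre1, which encodes the sort marker F4/80, at 564 and 433 CPM (-0.38, adjusted p 0.0014), and Csf1r, the receptor of macrophage colony-stimulating factor, at 1311 and 939 CPM (-0.48, adjusted p 0.00538).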

How the data were processed

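RNA-Seq of sorted TAMs was analysed in 4 WT and 4 miR-21-/- samples, grouped by their labels. The authors deposited 1 table of CPM values per gene and sample, each raised by 0.0001. The submitters' processing notes name STAR, Partek 7.0 and mm10. The counting rule and the use of strand are not given in the sources used here. Starts in the table equal those of GENCODE vM21 (GRCm38) for 97.1% of the genes with a shared symbol. Ends lie 1 base beyond those of GENCODE, and 1 base was subtracted, after which 97.0% were equal. Depth was read from the steps of low values, and 1 read was worth 0.0300 to 0.0496 CPM. Only 79.9% to 80.6% of low values were whole reads (within 0.1 read), so that no count test was run.

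From the deposited CPM, log2(CPM + 1) entered limma 3.58.1 (R 4.3.3; lmFit, then eBayes with an intensity trend), with genotype as the only term. A gene was kept if its mean reached 1 per 1e+06 of the sample totals, which left 13850, and p-values were adjusted over all of them. The limits on adjusted p and fold change are those the paper gives in its results for differentially expressed genes. Exact permutation tests were used for single values. The fit was tested on simulated data. Precision is limited by 4 samples per genotype. The members and the lists of pathways and cell markers were chosen with earlier results of these data known. Genes named are the members, the genes of a pathway list that passed the threshold or had its highest or lowest fold change, genes within the groups that passed, the 2 most similar genes of each member that passed, Mir21a and Vmp1. A gene that this rule selects is not reported here. Ccl1, the receptors and chemokines that did not pass, Slfn10-ps and the cell markers were named after their values were seen. Alternatives were pseudocounts of 0.1 and 10, no filter or a filter of 5, median of ratios and quantile normalization, no intensity trend, the replicate number as a block, each sample left out, and other thresholds. Figures were drawn with matplotlib 3.10.9, and sequences were aligned with Biopython 1.88.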

Additional observations from a re-analysis of the deposited data

Results flagged for a closer look

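The 8 samples were searched, for the members and the 28 other genes compared across alternatives, for a sample far from the other 3 of its genotype. The measure was the gap of the highest or lowest sample to its nearest neighbour as a share of the range of the 4, with the limit of Dixon's test at the 95% level. No member exceeded it. Of the 76 groups of 4 samples, 3 did, where chance gives about 1 in 20. Tnf in miR-21-/- replicate 1, at 75.3 CPM where the rest had 55.3 to 58.2 CPM, had a share of 0.853. Ccl24 in WT replicate 3, at 6.58 CPM, had a share of 0.832. Ccl25 in miR-21-/- replicate 1, at 3.25 CPM against 3.81 to 3.88 CPM, had a share of 0.889.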

How the results depend on the processing

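All 9 tested members kept a positive log2 fold change in each of 18 alternatives. The count of members past the threshold, 5, was 3 with a pseudocount of 10 (Ccl5 and Ccl9 lost), 1 with no filter (Ccl8 alone, the fit then covering 30634 genes) and 3 to 5 with single samples left out. It was 3 without WT replicate 2, 3 or 4 or miR-21-/- replicate 2, Ccl8, Ccl6 and Ccl4 remaining. Ccl8 passed in all 18 alternatives. Ccl6 and Ccl4 failed in 1, no filter (adjusted p 0.00646 and 0.00558), Ccl5 in 7 and Ccl9 in 10. The causes were not tested. A pseudocount of 10 lowers the size of changes in genes of few CPM by construction, to 0.72 for Ccl5, -0.79 for Ccr3, 0.78 for Il1a and 0.59 for E230016K23Rik, from 1.51, -1.47, 1.40 and 1.84. The median over all genes was -0.10 and became -0.003 with the median of ratios, where the same 5 members passed. With the replicate number of the sample descriptions as a block the count was 5, the same members, and 922 of all tested genes passed, against 986. Samples with the same number did not deviate together, with correlations of 0.08, -0.11, -0.14 and 0.22, so that the numbers were not read as a pairing. The sample titles number the miR-21-/- samples otherwise, and by title the pairs numbered 3 and 4 correlated at 0.14 and 0.032, too few pairs to be read as a pairing.

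The mean difference of Ccl11 was -0.23 CPM and ranged from -0.30 to -0.15 CPM with single samples left out. In the alternatives for pairs of neighbours, chosen after seeing the data, Ccl12 against Ccl7 ranged from -0.18 to 0.027 with single samples left out, and Ccl9 against Ccl5 was 0.19 with a pseudocount of 10 and -0.83 (exact permutation p = 0.0286) with quantile normalization. Over these 11 alternatives the shift was 0.38 to 0.48 for Ccl7 against Ccl2, 1.59 to 1.96 for Ccl8 against Ccl12, 0.45 to 0.62 for Ccl6 against Ccl9, -1.25 to -0.86 for Ccl3 against Ccl6 and 0.45 to 0.67 for Ccl4 against Ccl3. The exact permutation p rose from 0.0286 to 0.0571 for Ccl6 against Ccl9 without miR-21-/- replicate 2, 3 or 4, for Ccl3 against Ccl6 without miR-21-/- replicate 1 or 2, and for Ccl4 against Ccl3 without any 1 of the 4 WT samples. Ccr3 and Tnf missed the threshold with no filter (adjusted p 0.00572 and 0.00874), and Nfkbie passed with the median of ratios (0.67) and quantile normalization (0.61). With single samples left out, Ccl24 ranged from -0.090 to 0.64 and Ccl25 from -0.045 to 0.084 in log2 fold change. Ccl22 ranged from 0.15 to 0.60, the latter without WT replicate 3 (limma, adjusted p 0.0406). Depth limits Ccl11, Ccl1 and Ccr8, all under about 1 CPM.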
